A study of Mus musculus with 10 samples.

Results

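The 33 genes described here encode the enzymes of the tricarboxylic acid (TCA) cycle, of the entry of pyruvate into it, and of the reactions that refill it or draw on it. They were taken as a list of gene symbols and matched to the gene names of the array's probes. All 33 were on the array, with 49 probes in all, among 34607 named genes and transcripts. Where a gene had several probes, the one with the highest mean signal stood for it. Of the 33, 31 passed the filter on dim probes and were tested, and the remaining 2, Aco1 and Ogdhl, were well above background in no file.

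The cells were C2C12, a mouse myoblast line that can form myotubes, grown in high-glucose medium with serum. Per the labels, 6 samples received a mimic of miR-27a-3p, a synthetic RNA that supplies the mature microRNA, and 4 received a scrambled sequence, each at 150 nM by lipid transfection. RNA was collected after 72 h, at an estimated transfection efficiency of 60%, so part of the cells in every dish may have carried no transfected RNA. Untreated cells were not analysed here, and both groups share the transfection. The 10 scanner files came from 5 positions of 1 slide, each scanned 2 times, and the files of a position were averaged, which left 3 mimic arrays and 2 scrambled arrays. The labels do not say how 1 position could carry a pair of samples, so p-values here measure only how far these 5 arrays lie apart, and part of that spread may be technical.

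In the TCA cycle, acetyl-CoA made from pyruvate by the pyruvate dehydrogenase complex is joined to oxaloacetate, and the citrate formed is oxidised stepwise back to oxaloacetate, with NADH and reduced flavin passed to the respiratory chain. Pyruvate carboxylase, glutamate dehydrogenase and the transaminases add or remove intermediates, which is called anaplerosis and cataplerosis. Malic enzymes and ATP citrate lyase link the cycle to cytosolic NADPH and lipid synthesis. Skeletal muscle holds much of this machinery, and its level is known to increase as myoblasts form myotubes.

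A microRNA finds its targets mainly by its seed, bases 2 to 8 from the 5′ end. The mature miR-27a-3p, the agent whose mimic was transfected, is shown beside its paralogue miR-27b-3p, with the seed in capitals (RefSeq, GRCm38.p6; chr8:84208727-84208747 and chr13:63300760-63300780, both plus strand).
mmu-miR-27a-3p: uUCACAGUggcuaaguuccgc
mmu-miR-27b-3p: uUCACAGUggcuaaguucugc
Both molecules are 21 bases long and share the seed. Target sites in the transcripts of the 33 genes were not analysed here.

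Of the spots that were not controls, 27% to 35.3% per file were well above background, and none was saturated. Levels are given as log2 of the processed signal minus the 75th percentile of the probes that were above background in all files, and a difference is mimic minus scrambled on this scale. They compare arrays for 1 probe and not 1 gene with another. A gene is said to have risen or fallen where limma's adjusted p, taken over all 13126 genes and transcripts tested, was under 0.05. Among these, 364 rose and 307 fell. With the 75th percentile taken over all probes instead, 497 rose and 232 fell, and the median difference of all genes moved to 0.11, against -0.05 here.

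Most TCA genes differed little between the groups. Of the 31 tested members 3 passed the threshold (9.68%), against 5.11% of all genes tested. In mimic arrays 2 of the 31 tested members fell (6.45%), against 2.34% of all genes tested, and 1 rose (3.23%), against 2.77%. The pair that fell were Suclg1, a subunit of succinyl-CoA ligase, and Pcx, pyruvate carboxylase, and the gene that rose was Me3, the mitochondrial NADP-dependent malic enzyme. The other 28 passed no threshold, and the lowest adjusted p among them was 0.0617. In RNA from whole dishes, fewer cells of a type and less RNA per cell cannot be told apart.

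The counts changed with every array left out. Without any 1 of mimic arrays 1, 2 and 3, no member passed by limma. Without scrambled array 1, 7 members fell and 4 rose, and without scrambled array 2, 1 fell and none rose. In those last comparisons the lone scrambled array was assumed to vary like the mimic arrays. The mimic arrays lay closer together than the scrambled arrays did: the median SD of a member was 0.082 over the mimic arrays and 0.22 over the scrambled arrays. Over all genes it was 0.12 and 0.26, so this is no trait of the members. The fit took 1 spread for both groups, so its SEs, and p-values near the threshold, may be too small.

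By direction alone, 21 of the 31 members had a difference below 0 (67.7%), against 54.6% of all genes tested, and 10 had one above 0. The median difference was -0.13 over the members and -0.05 over all genes. Scaled to the percentile of all probes, the members' median was 0.03, again below the median of all genes under that scaling, 0.11, and 6 members turned above 0. The 3 mimic arrays lay below both scrambled arrays for 13 members (41.9%), against 25.7% of all genes, and above both for 4 (12.9%), against 19.9%. At an unadjusted p under 0.05, 5 members were lower and 2 higher, where 14.1% and 11.2% of all genes were. The members' differences were mostly small: 19 lay within 0.3 of 0 and 6 lay beyond 0.5, and their median size was 0.25, against 0.29 over all genes.

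**Figure D1:**
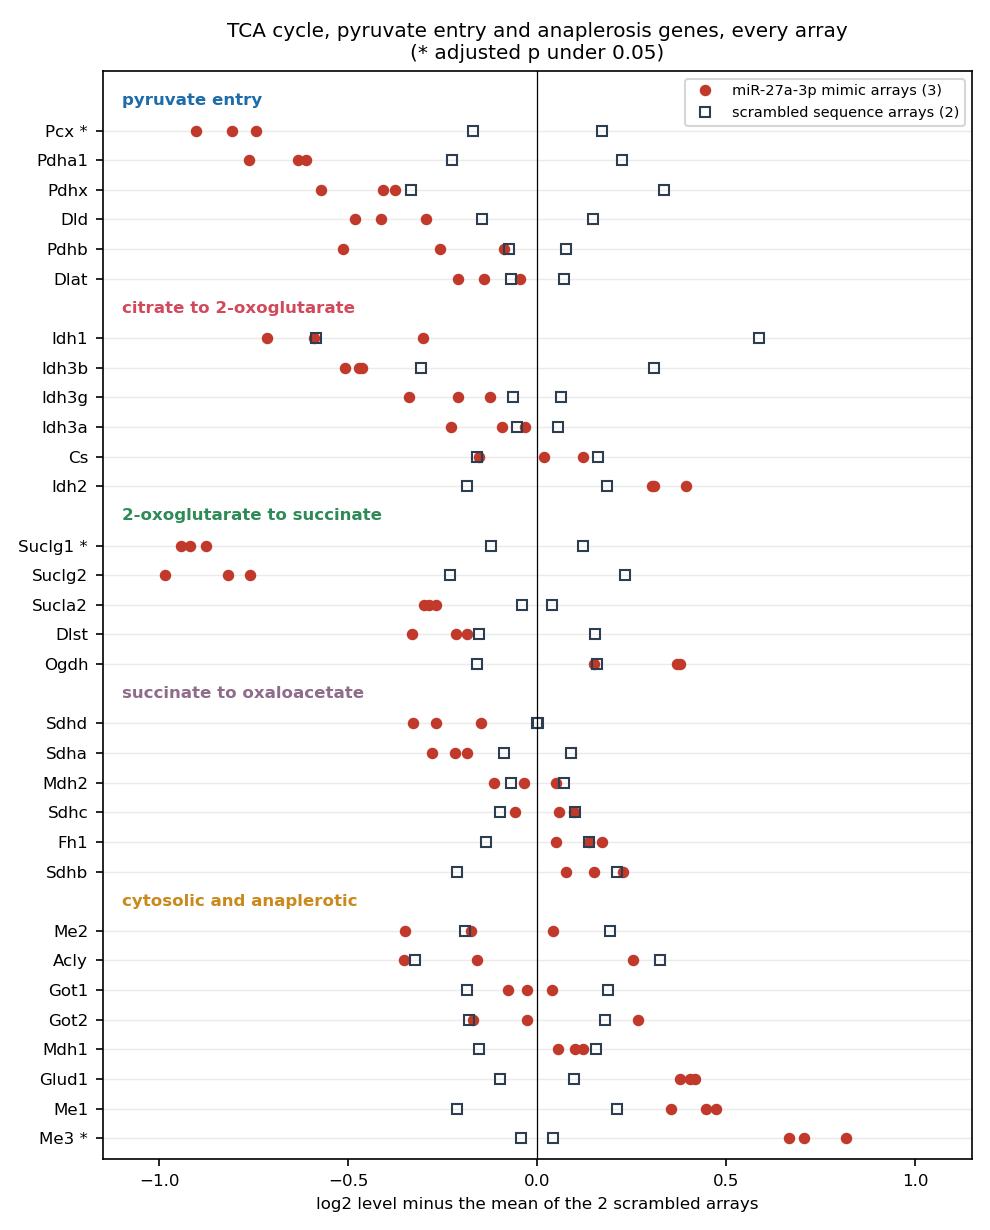
Log2 level of each tested member on every array, drawn relative to the mean of the 2 scrambled arrays and grouped by role; filled circles are the 3 mimic arrays and open squares the 2 scrambled arrays. An asterisk marks Pcx, Suclg1 and Me3, whose adjusted p was under 0.05, and in these the circles and squares do not overlap.

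The 6 genes of pyruvate entry all had differences below 0, against 54.6% of all genes, with a median of -0.42. For 5 of them (83.3%) all mimic arrays lay below both scrambled arrays, against 25.7% of all genes. In this group, 1 of the 6 fell, against 2.34% of all genes. With the percentile over all probes, Dlat turned to 0.03 and the other 5 kept their sign.

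Pcx makes oxaloacetate from pyruvate and bicarbonate and is the main anaplerotic enzyme. Its probe, at chr19:4621610-4621669 (mm9, plus strand), read -3.33, -3.42 and -3.27 on the mimic arrays, against -2.69 and -2.35 on the scrambled arrays. All mimic arrays were below both scrambled arrays, and the gap between the groups was larger than the range within either. The difference was -0.82 ± 0.16 (SE, n = 3 and 2 arrays; limma, adjusted p = 0.0485), a level 1.76-fold lower in mimic arrays. This call was lost with quantile normalization (adjusted p = 0.0518), with the percentile over all probes (0.0596), with normexp background correction (0.0903), in the second scan alone (0.0867), without scrambled array 2 (0.0745) and without the filter on dim probes (0.395).

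Pdha1 encodes the catalytic E1 alpha subunit of pyruvate dehydrogenase, the site of its regulatory phosphorylation. Its probe, at chrX:156560665-156560724 (mm9, minus strand), read -1.68, -1.83 and -1.70 on mimic arrays, against -1.29 and -0.84 on scrambled arrays. The groups did not overlap, though the scrambled arrays lay further apart than the mimic arrays. The difference of -0.67 ± 0.18 (SE) did not pass the threshold (limma, adjusted p = 0.0971).

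The rest of the complex ran below 0 with none past the threshold. Pdhx, the E3-binding protein, differed by -0.45 ± 0.23 (SE), Dld, the E3 subunit shared with other dehydrogenase complexes, by -0.40 ± 0.16, Pdhb, the E1 beta subunit, by -0.29 ± 0.18, and Dlat, the E2 acetyltransferase, by -0.13 ± 0.14. For all 4 the adjusted p in limma was 0.191 or more. Leaving out scrambled array 1 gave -0.12 for Pdhx, and leaving out scrambled array 2 gave -0.79. Of the 5 subunits of the complex, mimic arrays lay below both scrambled arrays in 4, the exception being Dlat, where 25.7% of all genes did so.

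In the steps that lead to 2-oxoglutarate, none of the 6 tested genes passed. Differences were below 0 in 5 of the 6 (83.3%), against 54.6% of all genes, and the median was -0.17. Scaled to the percentile of all probes, Cs turned to 0.15 and Idh3a to 0.04. Citrate synthase, Cs, which condenses acetyl-CoA with oxaloacetate, read 2.88, 2.98 and 2.71 on mimic arrays, against 3.02 and 2.70 on scrambled arrays. The groups overlapped fully, and the 95% interval of the difference ran from -0.42 to 0.41.

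The NAD-linked isocitrate dehydrogenase, the rate-limiting enzyme of this stretch, has 3 subunits, and all 3 had differences below 0, though Idh3a turned above 0 with the percentile over all probes. Idh3b, its beta subunit, read -0.09, -0.05 and -0.04 on mimic arrays, against 0.11 and 0.73 on scrambled arrays. The mimic arrays were close together and below both scrambled arrays, which were far apart, and the difference of -0.48 ± 0.21 (SE) had an adjusted p of 0.217 in limma. Leaving out scrambled array 1 gave -0.79, and leaving out scrambled array 2 gave -0.17. Idh3g, the gamma subunit, differed by -0.23 ± 0.14 and Idh3a, the catalytic alpha subunit, by -0.12 ± 0.14.

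Neither of the NADP-linked enzymes passed. Idh1, the cytosolic form, was dim, above background in 5 of 6 mimic files and 3 of 4 scrambled files. It read -4.73, -4.60 and -4.31 on mimic arrays, against -4.60 and -3.42 on scrambled arrays. The groups overlapped, scrambled array 2 stood above the rest, and the difference of -0.54 ± 0.35 (SE) had an adjusted p of 0.376 in limma. Without scrambled array 2 it was 0.05. Idh2, the mitochondrial form, differed by 0.34 ± 0.16 (SE, adjusted p = 0.256), with all mimic arrays above both scrambled arrays, and the difference was 0.52 when scrambled array 1 was left out and 0.15 when scrambled array 2 was. Aco1, the cytosolic aconitase that doubles as an iron sensor, was at background, between -6.68 and -5.27 on mimic arrays and at -6.08 and -5.32 on scrambled arrays.

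Between 2-oxoglutarate and succinate, 1 of the 5 tested genes fell, against 2.34% of all genes, and the median was -0.28. In 4 (80%) the difference was below 0 with all mimic arrays below both scrambled arrays, against 25.7% of all genes. Succinyl-CoA ligase, which makes a nucleoside triphosphate directly from succinyl-CoA, belongs here. It pairs a common alpha subunit, Suclg1, with a GDP-forming beta subunit, Suclg2, or an ADP-forming one, Sucla2.

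Suclg1 had the lowest p of the 33 genes. Its probe, at chr6:73221044-73221103 (mm9), read -0.17, -0.14 and -0.10 on mimic arrays, against 0.65 and 0.90 on scrambled arrays. The mimic arrays were nearly equal and the groups were far from overlapping. The difference was -0.91 ± 0.14 (SE, n = 3 and 2 arrays; limma, adjusted p = 0.0279, 95% interval -1.27 to -0.56), a level 1.88-fold lower in mimic arrays. Without mimic array 1, 2 or 3 its adjusted p was 0.168, 0.128 and 0.11, and without the filter on dim probes 0.308, while the difference itself stayed between -1.03 and -0.75 in all 19 alternatives.

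Suclg2, at chr6:95424712-95424771 (mm9), read -3.79, -3.85 and -4.02 on mimic arrays, against -3.26 and -2.80 on scrambled arrays. All mimic arrays were below both scrambled arrays, and the difference of -0.85 ± 0.19 (SE), close in size to that of Suclg1, missed the threshold in limma (adjusted p = 0.0617). Sucla2 read 0.87, 0.86 and 0.89 on mimic arrays, against 1.20 and 1.12 on scrambled arrays. The groups were again apart, with a smaller difference of -0.28 ± 0.13 (SE, limma, adjusted p = 0.234). Whether the differences of the subunits differed from each other was not tested.

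No subunit of the 2-oxoglutarate dehydrogenase complex passed. Its E1 subunit Ogdh differed by 0.30 ± 0.17 (SE, limma, adjusted p = 0.309) and its E2 subunit Dlst by -0.24 ± 0.16 (adjusted p = 0.366). Another bright probe of Ogdh read -0.05. Its E3 subunit is Dld, described above. Ogdhl, an E1 relative, was at background, at -6.45, -6.56 and -6.67 on mimic arrays and -6.81 and -6.46 on scrambled arrays.

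**Figure D2:**
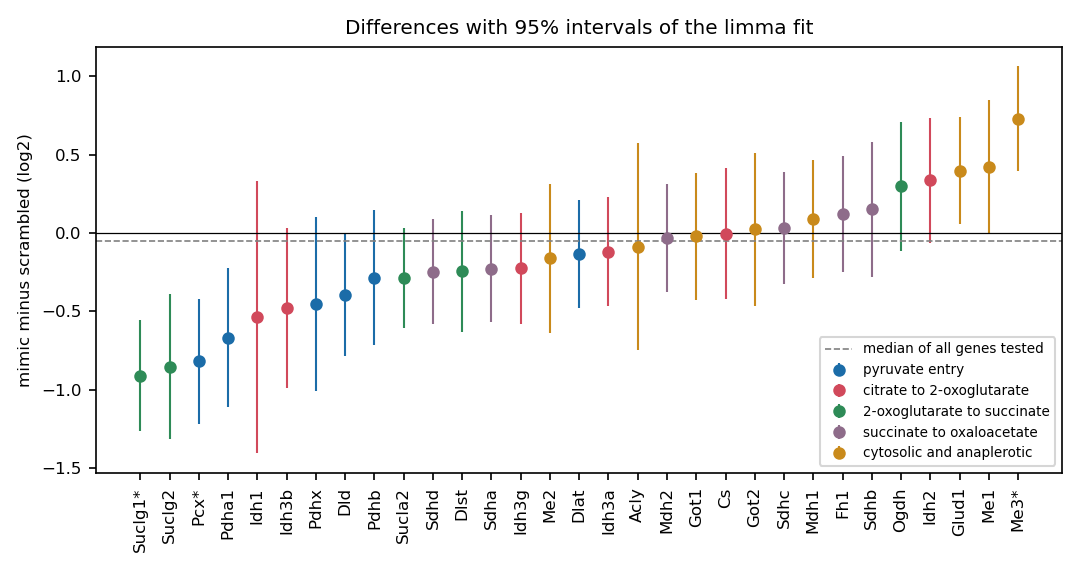
Difference between mimic and scrambled arrays (log2) for each tested member with the 95% interval of the limma fit, ordered by size and coloured by role; the dashed line is the median of all genes tested and an asterisk marks an adjusted p under 0.05. Suclg1 at -0.91 and Pcx at -0.82 lie at the low end and Me3 at 0.73 at the high end, and the genes of succinate to oxaloacetate lie within 0.25 of 0.

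From succinate to oxaloacetate none of the 6 genes passed, 3 differences were below 0 and 3 above, and the median was 0.00. Succinate dehydrogenase is also complex II of the respiratory chain. Its anchor subunit Sdhd differed by -0.25 ± 0.14 (SE) and its flavoprotein Sdha by -0.23 ± 0.14, and in both the mimic arrays lay below both scrambled arrays. Its iron-sulfur subunit Sdhb differed by 0.15 ± 0.17 and its anchor subunit Sdhc by 0.03 ± 0.14, and in both the groups overlapped. With all kept probes of a gene averaged, Sdhb turned to -0.12 and Sdhc to -0.14. Fumarase, Fh1, differed by 0.12 ± 0.15 and mitochondrial malate dehydrogenase, Mdh2, by -0.03 ± 0.14. Mdh2 turned to 0.12 with the percentile over all probes.

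Among the 8 cytosolic and anaplerotic genes, 1 rose, against 2.77% of all genes. Differences were above 0 in 5 and below in 3, and the median was 0.06. Mimic arrays lay above both scrambled arrays in 3 (37.5%), against 19.9% of all genes, and below both in none, against 25.7%. Those 3 were Me3, Me1 and Glud1. Pcx, also anaplerotic, was listed under pyruvate entry and fell, so these counts do not cover every anaplerotic gene.

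Me3 turns malate into pyruvate and NADPH in mitochondria. Its probe, at chr7:97000311-97000370 (mm9), read -2.71, -2.59 and -2.75 on mimic arrays, against -3.37 and -3.45 on scrambled arrays. All mimic arrays were above both scrambled arrays, and the arrays of each group were close together. The difference was 0.73 ± 0.14 (SE, n = 3 and 2 arrays; limma, adjusted p = 0.0422), a level 1.66-fold higher in mimic arrays. The call was lost with normexp background correction, where the difference was 0.47 (adjusted p = 0.116), in the second scan alone (0.0822), without scrambled array 2 (0.0693) and without the filter on dim probes (0.423).

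Of the other malic enzymes, Me1, the cytosolic form, read -0.14, -0.02 and -0.05 on mimic arrays, against -0.28 and -0.70 on scrambled arrays. The groups did not overlap, and the difference was 0.42 ± 0.17 (SE, limma, adjusted p = 0.199). Me2, the mitochondrial NAD-linked form, was dim, above background in 4 of 6 mimic files and 4 of 4 scrambled files, and differed by -0.16 ± 0.19 with overlapping groups.

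Glud1, glutamate dehydrogenase, which makes 2-oxoglutarate from glutamate, read 0.68, 0.64 and 0.66 on mimic arrays, against 0.36 and 0.16 on scrambled arrays. The mimic arrays were nearly equal and above both scrambled arrays, and the difference of 0.40 ± 0.14 (SE) did not pass in limma (adjusted p = 0.151). Enzymes of the malate-aspartate shuttle showed little difference. Mdh1, cytosolic malate dehydrogenase, differed by 0.09 ± 0.15, and the aspartate transaminases Got1 (cytosolic) and Got2 (mitochondrial) by -0.02 ± 0.16 and 0.02 ± 0.20. The shuttle's carriers Slc25a12 and Slc25a11 differed by -0.33 ± 0.16 and -0.18 ± 0.13 (SE), with all mimic arrays below both scrambled arrays. Neither carrier passed in limma (adjusted p = 0.257 and 0.426). Acly, ATP citrate lyase, which returns citrate carbon to cytosolic acetyl-CoA, differed by -0.09 ± 0.27, with wide spread in both groups. Of Mdh1, Got1, Got2 and Acly, Got1 turned to 0.14 and Acly to 0.07 with the percentile over all probes.

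Probes of 1 gene did not always read alike. Of the 12 members with several probes, 9 had more than 1 above the filter on dim probes. For Me3 a neighbouring probe read 0.64 ± 0.16 (SE; limma over 16719 probes, adjusted p = 0.0938), in the direction of the chosen one, and a further probe was at background. Me1, Pdhb and Fh1 also had further probes on the same side of 0 as the chosen one. Suclg1 and Pcx had 1 probe each and could not be checked in this way.

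**Figure D3:**
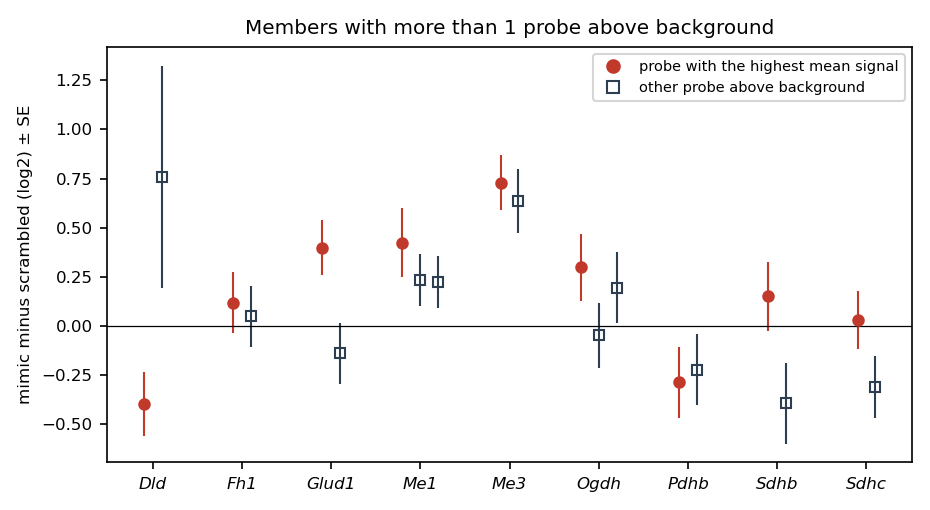
Difference between mimic and scrambled arrays (log2, with SE bars) for each probe of the 9 members with several probes above background; filled circles are the probe that stands for the gene and open squares its other probes. For Dld, Glud1, Sdhb, Sdhc and Ogdh another probe lies on the opposite side of 0 from the chosen one, and for Ogdh a further one reads 0.20.

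For 5 members another probe had the opposite sign. The second probe of Dld differed by 0.76 ± 0.56, with mimic array 1 at -0.21 and mimic arrays 2 and 3 at -2.08 and -1.76, against -2.37 and -1.86 on scrambled arrays. Mimic array 1 stood far above the other 4 arrays. The other probes of Sdhb, Sdhc and Glud1 differed by -0.39 ± 0.21, -0.31 ± 0.16 and -0.14 ± 0.16, and a further probe of Ogdh by -0.05 ± 0.17. None of these passed in limma. The signs given above for Dld, Sdhb, Sdhc, Glud1 and Ogdh are therefore signs of a probe and not of the gene as a whole.

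For the members past the threshold, both scans gave a difference of the same sign. The scans are of the same arrays and are not independent. Suclg1 differed by -0.97 in the first scan alone and -0.85 in the second, Pcx by -0.89 and -0.75, and Me3 by 0.76 and 0.69. Some members differed more between scans: Dld read -0.15 in the first scan and -0.64 in the second, Dlat -0.05 and -0.22, and Me2 -0.29 and -0.04. When scan was blocked in the fit and array entered as a random block, the adjusted p in limma was 0.0041 for Suclg1, 0.0164 for Pcx and 0.0216 for Me3. Suclg2 and Pdha1 passed as well, at 0.0166 and 0.019. That fit took the files singly, with 1 correlation between scans of an array shared by all genes. Its smaller p-values and added calls therefore rest on no further arrays.

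**Figure D4:**
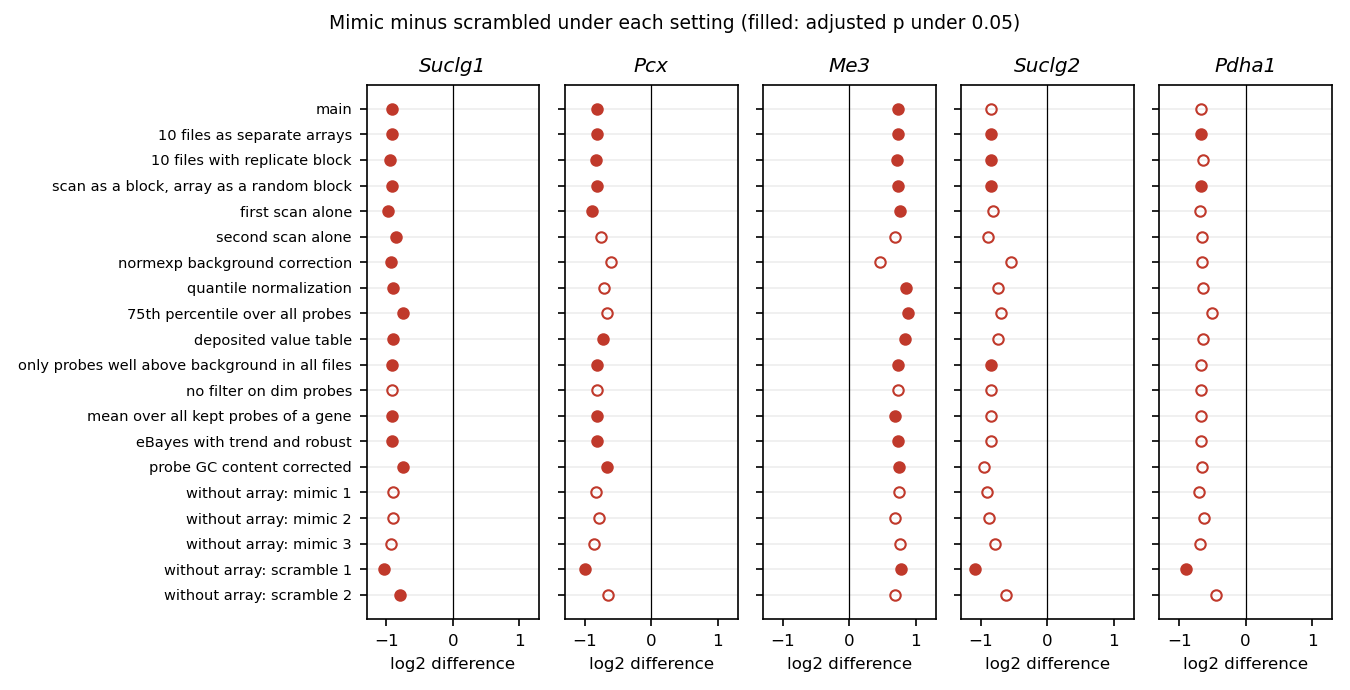
Difference between mimic and scrambled arrays (log2) of 5 members, Suclg1, Suclg2, Pcx, Pdha1 and Me3, as reported (top) and in each of the 19 alternatives; filled circles have an adjusted p under 0.05 and open circles do not. Suclg1, Suclg2, Pcx and Pdha1 stay below 0 and Me3 above 0 in all of them, with Pdha1 between -0.89 and -0.44 and Me3 between 0.47 and 0.89.

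Genes around the cycle were read in the same way. Of 51 listed regulators, carriers, assembly factors, feeding enzymes and transcriptional regulators, 50 were on the array and 38 were tested. By limma 1 fell and none rose, and at an unadjusted p under 0.05, 9 were lower and 2 higher. Over all genes 2.34% fell and 2.77% rose, and 14.1% were lower and 11.2% higher at that unadjusted p. Differences were below 0 in 20 and above 0 in 18, with a median of -0.05, equal to that of all genes. Mimic arrays lay below both scrambled arrays in 16 (42.1%), against 25.7% of all genes, and above both in 8 (21.1%), against 19.9%. The gene that fell was Ucp2, a mitochondrial carrier that exports intermediates of the cycle such as malate. It was well above background in 0 of 6 mimic files and 4 of 4 scrambled files, so it passed the filter on dim probes only through the group where it was high. With its dim mimic signals raised to a floor, it was 2.83-fold lower in mimic arrays. Its adjusted p in limma, 0.0253, was taken on the unraised signals, which were not well above background in mimic files. The fold sets the scrambled mean against, on each mimic array, the higher of the probe's own signal and the lowest signal well above background. Some brighter probes were not well above background, so the fold is no strict bound.

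The 3 next neighbours by p did not pass in limma. Tfam, which packages and transcribes mitochondrial DNA, differed by -0.67 ± 0.14 (SE, adjusted p = 0.0604). Sdhaf1, an assembly factor of succinate dehydrogenase, differed by -0.82 ± 0.18 (adjusted p = 0.0587). Gpt2, the mitochondrial alanine transaminase that makes 2-oxoglutarate, differed by -0.95 ± 0.22 (adjusted p = 0.0661). In all 3, every mimic array lay below both scrambled arrays. Of the 6 tested genes that regulate transcription of mitochondrial enzymes, 5 had differences below 0 (83.3%), against 54.6% of all genes. None of the 6 passed in limma. Of the 5, Esrra differed by -0.08 ± 0.13 (SE) and Yy1 by -0.18 ± 0.14. The signs of these genes under other scalings were not examined.

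Markers of myogenic state and of proliferation were read on the same arrays. All 12 differentiating myocyte markers had mimic arrays below both scrambled arrays, against 25.7% of all genes. Of the 12, 10 fell, against 2.34% of all genes. The mean level of the list ran from -1.25 to -0.76 over mimic arrays and from 0.72 to 0.93 over scrambled arrays. All 5 proliferation markers were higher in every mimic array than in both scrambled arrays, against 19.9% of all genes. Of the 5, 3 rose, against 2.77% of all genes. The list means were -0.79 to -0.74 over mimic arrays and -1.72 to -1.59 over scrambled arrays. Of 7 myoblast markers 6 were tested and none passed, with list means of 1.24 to 1.40 over mimic arrays and 1.62 to 2.16 over scrambled arrays. At an unadjusted p under 0.05, 5 of those 6 were lower, against 14.1% of all genes. The part of these markers in the values of the TCA genes was not tested.

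Markers of other cell types were mostly at background. None of the 4 adipocyte markers was tested, and Adipoq, Fabp4, Plin1, Pecam1, Cdh5, Adgre1, Ptprc and Thy1 were well above background in no file. Of fibroblast markers 2 of 4 were tested, Col1a1 and Dcn, which C2C12 cells also express, with list means of 2.31 to 2.42 over mimic arrays and 1.59 to 2.13 over scrambled arrays. Likewise 1 of 3 endothelial markers (Kdr) and 1 of 3 macrophage markers (Cd68) were tested, and none of these 4 genes passed in limma. At an unadjusted p under 0.05, 3 of the 4 were higher, against 11.2% of all genes. These were Col1a1 by 0.56, Dcn by 0.48 and Cd68 by 0.53. Each had every mimic array above both scrambled arrays, as did 19.9% of all genes. The part of these 4 genes in the values of the TCA genes was not tested.

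Promoter windows were read for the members, since the subunits of succinyl-CoA ligase lay on the same side. RefSeq (GRCm38.p6) gave 38 windows of 250 bases before the start for 30 of the 33 members, among 32851 windows in all. Each was searched on both strands for 4 motifs known from mitochondrial or muscle genes. AAGGTCA, bound by estrogen-related receptors, was in 2.63% of the members' windows and 4.08% of all windows. GCGCA and GCGC with any 1 base between them, bound by NRF1, was in 7.89% and 3.74%, CCGGAAG, bound by ETS factors such as GABPA, in 7.89% and 6.91%, and CAGCTG, an E-box of myogenic factors, in 7.89% and 13%. The 7.89% are 3 windows in each case, and 29 of the 38 windows held none of the 4.

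The windows of Suclg1 and Suclg2 are shown because their differences were alike in size, that of Pcx because it was the 1 member past the threshold with a motif, and that of Sdha because it held the NRF1 motif 3 times. They lie at chr6:73248255-73248504 (Suclg1, plus strand), chr6:95718847-95719096 (Suclg2, minus strand), chr19:4594069-4594318 (Pcx, plus strand, the second of its starts) and chr13:74350241-74350490 (Sdha, minus strand). Capitals mark a motif, CAGCTG in Pcx and the NRF1 motif in Sdha.
Suclg1: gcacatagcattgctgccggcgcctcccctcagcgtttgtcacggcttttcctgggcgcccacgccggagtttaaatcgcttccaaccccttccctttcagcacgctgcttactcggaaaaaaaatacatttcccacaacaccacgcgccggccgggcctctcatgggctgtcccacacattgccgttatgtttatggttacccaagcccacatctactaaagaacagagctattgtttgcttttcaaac
Suclg2: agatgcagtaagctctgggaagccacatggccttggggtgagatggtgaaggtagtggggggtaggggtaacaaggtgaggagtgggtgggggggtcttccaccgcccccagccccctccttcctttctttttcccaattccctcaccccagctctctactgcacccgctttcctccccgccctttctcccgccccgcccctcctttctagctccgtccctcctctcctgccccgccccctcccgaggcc
Pcx: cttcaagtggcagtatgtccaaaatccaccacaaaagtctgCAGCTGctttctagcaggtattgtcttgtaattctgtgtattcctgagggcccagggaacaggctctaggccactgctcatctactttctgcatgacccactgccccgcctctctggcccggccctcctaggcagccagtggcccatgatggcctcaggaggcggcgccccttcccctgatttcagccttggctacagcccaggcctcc
Sdha: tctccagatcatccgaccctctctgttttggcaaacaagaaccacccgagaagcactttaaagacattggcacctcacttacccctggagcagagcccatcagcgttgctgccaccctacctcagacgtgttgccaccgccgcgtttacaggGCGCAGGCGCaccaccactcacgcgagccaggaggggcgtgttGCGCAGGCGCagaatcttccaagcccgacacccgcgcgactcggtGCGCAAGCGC
Suclg1 and Suclg2 held none of the 4 motifs in these windows. The window of Sucla2, the other beta subunit of succinyl-CoA ligase, is not shown and held the NRF1 motif 17 to 8 bases before the start. The E-box of Pcx lay 209 to 204 bases before the start. A match is a run of letters and was not tested as a binding site.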

How the data were processed

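Total RNA was hybridised to 1-colour Agilent arrays. The authors' scanner output gives a linear intensity for every spot. Per the file headers it was background-subtracted and detrended in Feature Extraction 12.0.0.7, with probe positions on mm9, but 10.7.3.1 is the version in the submitters' processing notes. The deposited value table holds intensity too and served as an alternative.

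The 5 pairs of files at 1 position shared 21 to 75 non-uniform spots and the other 40 pairs of files shared 0, so each pair was averaged (mimic replicates 1 and 4, 2 and 5, 3 and 6; scrambled 1 and 3, 2 and 4). Control spots and outlier spots (157 to 270 per file) were left out. The 75th percentile was taken over 13022 probes, and probes above background in at least 4 of 10 files were kept (16783 of 55681). Probes were named through RefSeq GRCm38.p6 by accession (28026), symbol (3418) or older symbol (295), and otherwise by the file's name (23942). Mimic and scrambled arrays were set against each other in limma 3.58.1 under R 4.3.3 (3 residual and 2.93 prior degrees of freedom, Benjamini-Hochberg adjustment). The fit was also run on simulated data, with planted changes larger than any member's difference and the same spread in both groups. That run does not cover calls of the size seen among the members. The number of arrays limits the precision.

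The members and lists were chosen with earlier results of these data known. Every member is named; values on each array are given for those past the threshold, for the 4 with the largest difference among the rest, and for some others chosen after their values were seen.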

Additional observations from a re-analysis of the deposited data

How the results depend on the processing

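Over the 31 members and 19 alternatives, 587 differences were recomputed: 498 kept their sign and their side of the threshold, 22 passed newly, 20 no longer passed and 47 changed sign. With the 10 files as separate arrays, 2525 genes fell and 1976 rose, 9 members among the falls and 4 among the rises. Both this setting and the next count the 2 scans of an array as separate replicates, so their calls overstate the replication. Some of the 22 new passes come from them. With the replicate number as a block, 1064 genes fell and 870 rose, with 3 members lower and 1 higher. Same-numbered deviations correlated at 0.38, -0.04, -0.35 and -0.11. Number 1 correlated best with its own number, and the others did not. Number 3 sets files of different scans against each other, and the files repeat few arrays. Whether the numbers pair the samples therefore cannot be decided from these values. With the scan as a block, 749 genes fell and 703 rose, and 4 members fell. In the second scan alone 1 member fell and 0 rose, and likewise with normexp. With quantile normalization 1 member fell and the median of the members was -0.066. Scaled to the percentile of all probes 1 fell and that median was 0.025, and in the deposited table it was -0.055. Without the filter 6 genes fell and 11 rose, and 0 members were called either way. Leaving out 1 array gave 17 to 2452 genes lower, 30 to 1888 higher, 0 to 7 members lower, 0 to 4 higher and a median of -0.18 to -0.12. The cause of these shifts was not tested, beyond the fewer arrays, the files counted singly and the fewer or more probes that the alternatives use.

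The sign changes were of small differences, Idh1 excepted. They were, under the replicate block, Got2 (-0.045) and Cs (0.0020), in the first scan Sdhc (-0.044), in the second Got2 (-0.029) and Cs (0.036), and with normexp Got2 (-0.046), Cs (0.11) and Sdhc (-0.027). Quantile normalization turned Dlat (0.0044), Mdh2 (0.11), Me2 (0.014), Cs (0.11) and Got1 (0.020). The percentile over all probes turned Dlat (0.025), Idh3a (0.039), Mdh2 (0.12), Cs (0.15), Got1 (0.14) and Acly (0.071). The deposited table turned Dlat (0.0037), Mdh2 (0.11), Me2 (0.016), Cs (0.11) and Got1 (0.018). Averaging probes turned Sdhb (-0.12) and Sdhc (-0.14), and correcting for probe GC content turned Mdh2 (0.12), Cs (0.091), Mdh1 (-0.032) and Sdhc (-0.092). Leaving out 1 array moved Mdh2 between -0.10 and 0.037, Got1 between -0.21 and 0.17, Sdhc between -0.067 and 0.13, Got2 between -0.16 and 0.20, Cs between -0.17 and 0.15, Acly between -0.41 and 0.24, Idh1 between -1.12 and 0.051, Me2 between -0.35 and 0.031, Mdh1 between -0.064 and 0.25, Fh1 between -0.016 and 0.25, and Sdhb between -0.061 and 0.36.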
